A study of Saccharomyces cerevisiae with 4 samples.

Results

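The 8 genes SSA1, SSA2, SSA3, SSA4, SSB1, SSB2, HSC82 and HSP82 encode cytosolic Hsp70 and Hsp90 chaperones of budding yeast. They are a chosen list, taken by name from the 5684 coding genes used here, and all 8 matched the gene table. Chromatin was pulled down on IgG beads and mapped by ChIP-exo: exonucleases digest the pulled-down fragments up to the crosslinked protein, and the tag ends then lie at its edges. Each tagged strain carried TAP, an affinity tag that IgG retains through protein A, on 1 of 3 cytoplasmic mRNA decay factors: Xrn1-TAP (the 5′ to 3′ exonuclease), Dcp2-TAP (the catalytic decapping subunit) or Lsm1-TAP (a subunit of the ring that promotes decapping). The no-TAP strain carried no tag and went through the same pull-down. All strains had the background yMC458 and were grown in YPD, a rich glucose medium. Each strain gave 1 library; differences between strains therefore rest on single libraries with no replicate check, and every interval below is a 95% interval for counting error only.

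Hsp70 proteins bind and release unfolded stretches of other proteins in a cycle of ATP hydrolysis driven by J-protein partners and reset by nucleotide exchange factors. Hsp90 dimers act later, on nearly folded clients such as kinases, with their own set of cochaperones. Yeast keeps for both chaperones a form made at all times and a form made under heat or other stress. SSA2, SSB1, SSB2 and HSC82 are the constitutive genes here, SSA3, SSA4 and HSP82 the stress-induced ones. SSA1, expressed in growing cells and raised further by heat, was placed in neither class. The heat shock factor Hsf1 and the stress factors Msn2 and Msn4 are the known activators of the inducible genes.

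The libraries held 158105 tags with Xrn1 tagged, 357674 with Dcp2, 211236 with Lsm1 and 33412 with no tag. In the same order they had 18481, 44955, 25342 and 4743 distinct positions, each base and strand with any tag being counted once. Tags at 1 position can be PCR copies of 1 fragment, so distinct positions are the main count. An average coding gene had 1.26 positions in the 500 bp upstream of its start codon in Xrn1-TAP, 3.2 in Dcp2-TAP and 1.57 in Lsm1-TAP, against 0.323 in no-TAP.

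Taken as a sum, the promoters of the 8 chaperone genes were denser than the average promoter in all 4 libraries, the untagged one included, but not every member was: SSA3 had no position in any library, and SSA4 in Xrn1-TAP and SSB2 in Lsm1-TAP lay under the mean gene, at 0.794 and 0.635 times. Summed over the 8 windows, 30 positions lay upstream in Xrn1-TAP, 91 in Dcp2-TAP and 36 in Lsm1-TAP, against 11 in no-TAP. This was 2.98 times the mean gene in Xrn1-TAP (2.01 to 4.25), 3.55 times in Dcp2-TAP (2.86 to 4.36) and 2.86 times in Lsm1-TAP (2 to 3.96), against 4.25 times in no-TAP (2.12 to 7.61). A gene was called when it had more positions than the library's own mean density gives (1-sided exact Poisson test, adjusted by Benjamini-Hochberg over the 5684 genes, threshold 0.05). By this rule 4 of the 8 were called in Xrn1-TAP, where 4.52% of all genes were, 6 in Dcp2-TAP beside 10.8%, 3 in Lsm1-TAP beside 6.72%, and 0 in no-TAP beside 0.616%. In no-TAP the 3 highest members, SSA2, SSB1 and HSC82, had an adjusted p of 0.0649 in this Poisson test, and these 3 passed 0.05 unadjusted, beside 5.23% of all genes. The median of the 8 genes was 4.5 positions in Xrn1-TAP, 11.5 in Dcp2-TAP and 3 in Lsm1-TAP, against 1 in no-TAP, where all coding genes had medians of 1, 2, 1 and 0. Counted in tags, 7 members were called in Xrn1-TAP beside 32.1% of all genes, 7 in Dcp2-TAP beside 40.7%, 6 in Lsm1-TAP beside 31.2% and 5 in no-TAP beside 14.2%.

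**Figure D1:**
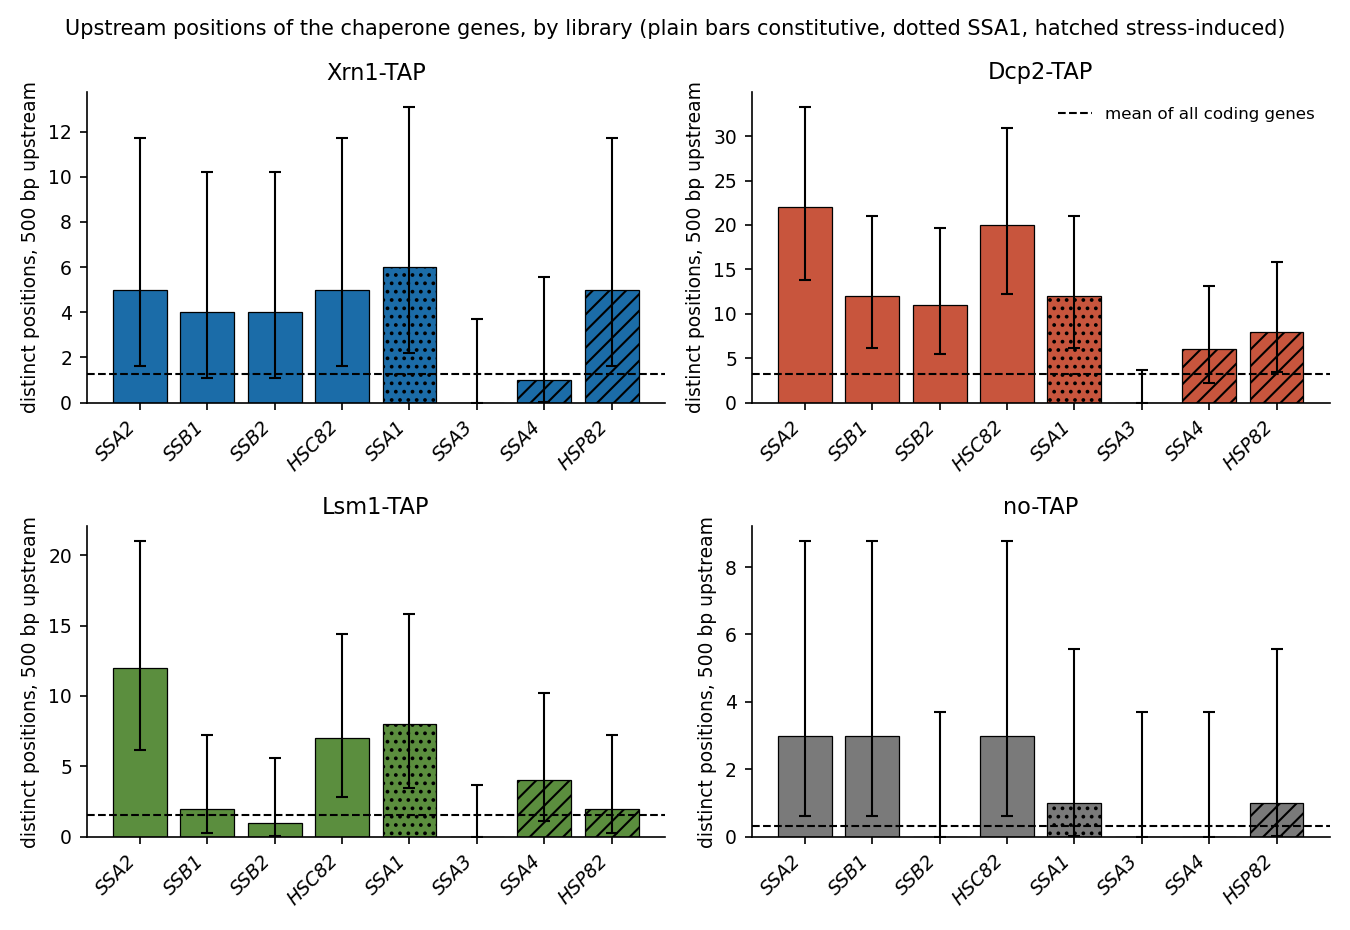
Distinct positions in the 500 bp upstream of each start codon (linear axes starting at 0, a scale of its own in each panel), 1 panel per library, with exact 95% Poisson intervals as error bars. Plain bars are the constitutive genes, the dotted bar is SSA1, hatched bars are the stress-induced genes, and the dashed line is the mean of all coding genes. SSA2 and HSC82 are the tallest bars in Dcp2-TAP, at 22 and 20, and SSA3 is at 0 in every panel.

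Among the Hsp70 genes of the SSA family, SSA2, which encodes a major Ssa protein of growing cells, on chromosome XII, had the most upstream positions of the 8 genes in Dcp2-TAP and Lsm1-TAP. In Xrn1-TAP SSA1 had 1 more, and in no-TAP SSA2 had as many as SSB1 and HSC82. It had 5 positions in Xrn1-TAP, 22 in Dcp2-TAP and 12 in Lsm1-TAP, against 3 in no-TAP, carrying 69, 174, 127 and 30 tags. Its Dcp2-TAP count was 6.87 times the mean gene (4.3 to 10.4) and above that of 99.2% of coding genes, and its Lsm1-TAP count was 7.62 times the mean (3.94 to 13.3). SSA2 was called in all 3 tagged libraries, with adjusted p of 0.0182, 3.73e-15 and 8.12e-08 in the Poisson test. In Dcp2-TAP its positions were spread between 9 and 400 bp upstream, with a median of 114 bp, and the fullest one held 12.6% of the tags in the window. In no-TAP, by contrast, 20 of the 30 tags sat at 1 antisense position 113 bp upstream.

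SSA1, on chromosome I, had 6 upstream positions in Xrn1-TAP, 12 in Dcp2-TAP and 8 in Lsm1-TAP, against 1 in no-TAP, with 51, 97, 81 and 8 tags. It was also called in the 3 tagged libraries, at 4.76 (1.75 to 10.4), 3.75 (1.94 to 6.54) and 5.08 (2.19 to 10) times the mean gene. Its window overlaps that of EFB1, which is transcribed away from it and encodes a subunit of elongation factor 1, so the farther positions may belong to either gene. In Xrn1-TAP the fullest position, with 30 tags, was the one farthest from SSA1, 500 bp upstream. In Lsm1-TAP all 8 positions lay on the strand opposite to the gene, while in Dcp2-TAP 7 lay on the strand of the gene and 5 on the other. This gene and library were picked out after their values were seen.

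The inducible SSA genes had fewer positions. SSA4, the strongly heat-induced Ssa gene on chromosome V, had 1 position in Xrn1-TAP, 6 in Dcp2-TAP and 4 in Lsm1-TAP, against 0 in no-TAP, with 13, 54, 48 and 0 tags. None of these counts was called, and in Dcp2-TAP the adjusted p was 0.0614. SSA3, on chromosome II, had no position upstream in any of the 4 libraries. A count of 0 has an exact Poisson interval up to 3.69 positions, above the mean gene even in Dcp2-TAP, where 14.4% of coding genes were at 0. By positions a depletion at SSA3 was therefore not detectable in any library taken alone. By tags its fold over the mean gene had intervals up to 0.321, 0.14 and 0.268 in the tagged libraries and 1.51 in no-TAP. These count copies of a fragment as independent and are too narrow. The coding sequence of AAR2, which encodes a splicing factor, reaches into the SSA3 window and leaves 273 bp between the genes. Neighbouring genes also lie in the windows of SSB1 (PTP1, at 357 bp), SSB2 (MER1, at 315 bp) and HSC82 (RTP1, at 384 bp).

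SSB1 and SSB2 encode nearly the same protein, an Hsp70 bound to ribosomes that receives nascent chains, and lie on chromosomes IV and XIV. SSB1 had 4 upstream positions in Xrn1-TAP, 12 in Dcp2-TAP and 2 in Lsm1-TAP, against 3 in no-TAP, with 31, 93, 16 and 19 tags. SSB2 had 4, 11 and 1 positions in the 3 tagged libraries in the same order and 0 in no-TAP, with 51, 80, 6 and 0 tags. Both genes were called in Dcp2-TAP and in no other library, at 3.75 (1.94 to 6.54) and 3.43 (1.71 to 6.14) times the mean gene. The copies had close counts in Dcp2-TAP, with SSB1 at 1.09 times SSB2 (0.441 to 2.73). In Dcp2-TAP the positions of SSB1 reached 242 bp upstream, with a median of 94 bp. Those of SSB2 reached 364 bp, with a median of 191 bp. The order was the other way in Xrn1-TAP, from 4 positions at each gene. There SSB1 reached 375 bp (median 155 bp) and SSB2 77 bp (median 62.5 bp).

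Of the Hsp90 genes, HSC82, the constitutive one on chromosome XIII, had 5 upstream positions in Xrn1-TAP, 20 in Dcp2-TAP and 7 in Lsm1-TAP, against 3 in no-TAP, with 26, 186, 74 and 25 tags. HSP82, the heat-induced one on chromosome XVI, had 5, 8 and 2 in the tagged libraries and 1 in no-TAP, with 44, 104, 23 and 28 tags. HSC82 was called in all 3 tagged libraries and HSP82 in Xrn1-TAP and Dcp2-TAP. In Dcp2-TAP, HSC82 had 2.5 times the positions of HSP82 (1.05 to 6.56). The same ratio was 3.5 in Lsm1-TAP (0.666 to 34.5), 3 in no-TAP (0.241 to 157) and 1 in Xrn1-TAP (0.23 to 4.35). The HSP82 window overlaps that of YAR1, which is transcribed in the other direction. All 28 no-TAP tags of HSP82 lay at 1 antisense position 86 bp upstream.

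**Figure D2:**
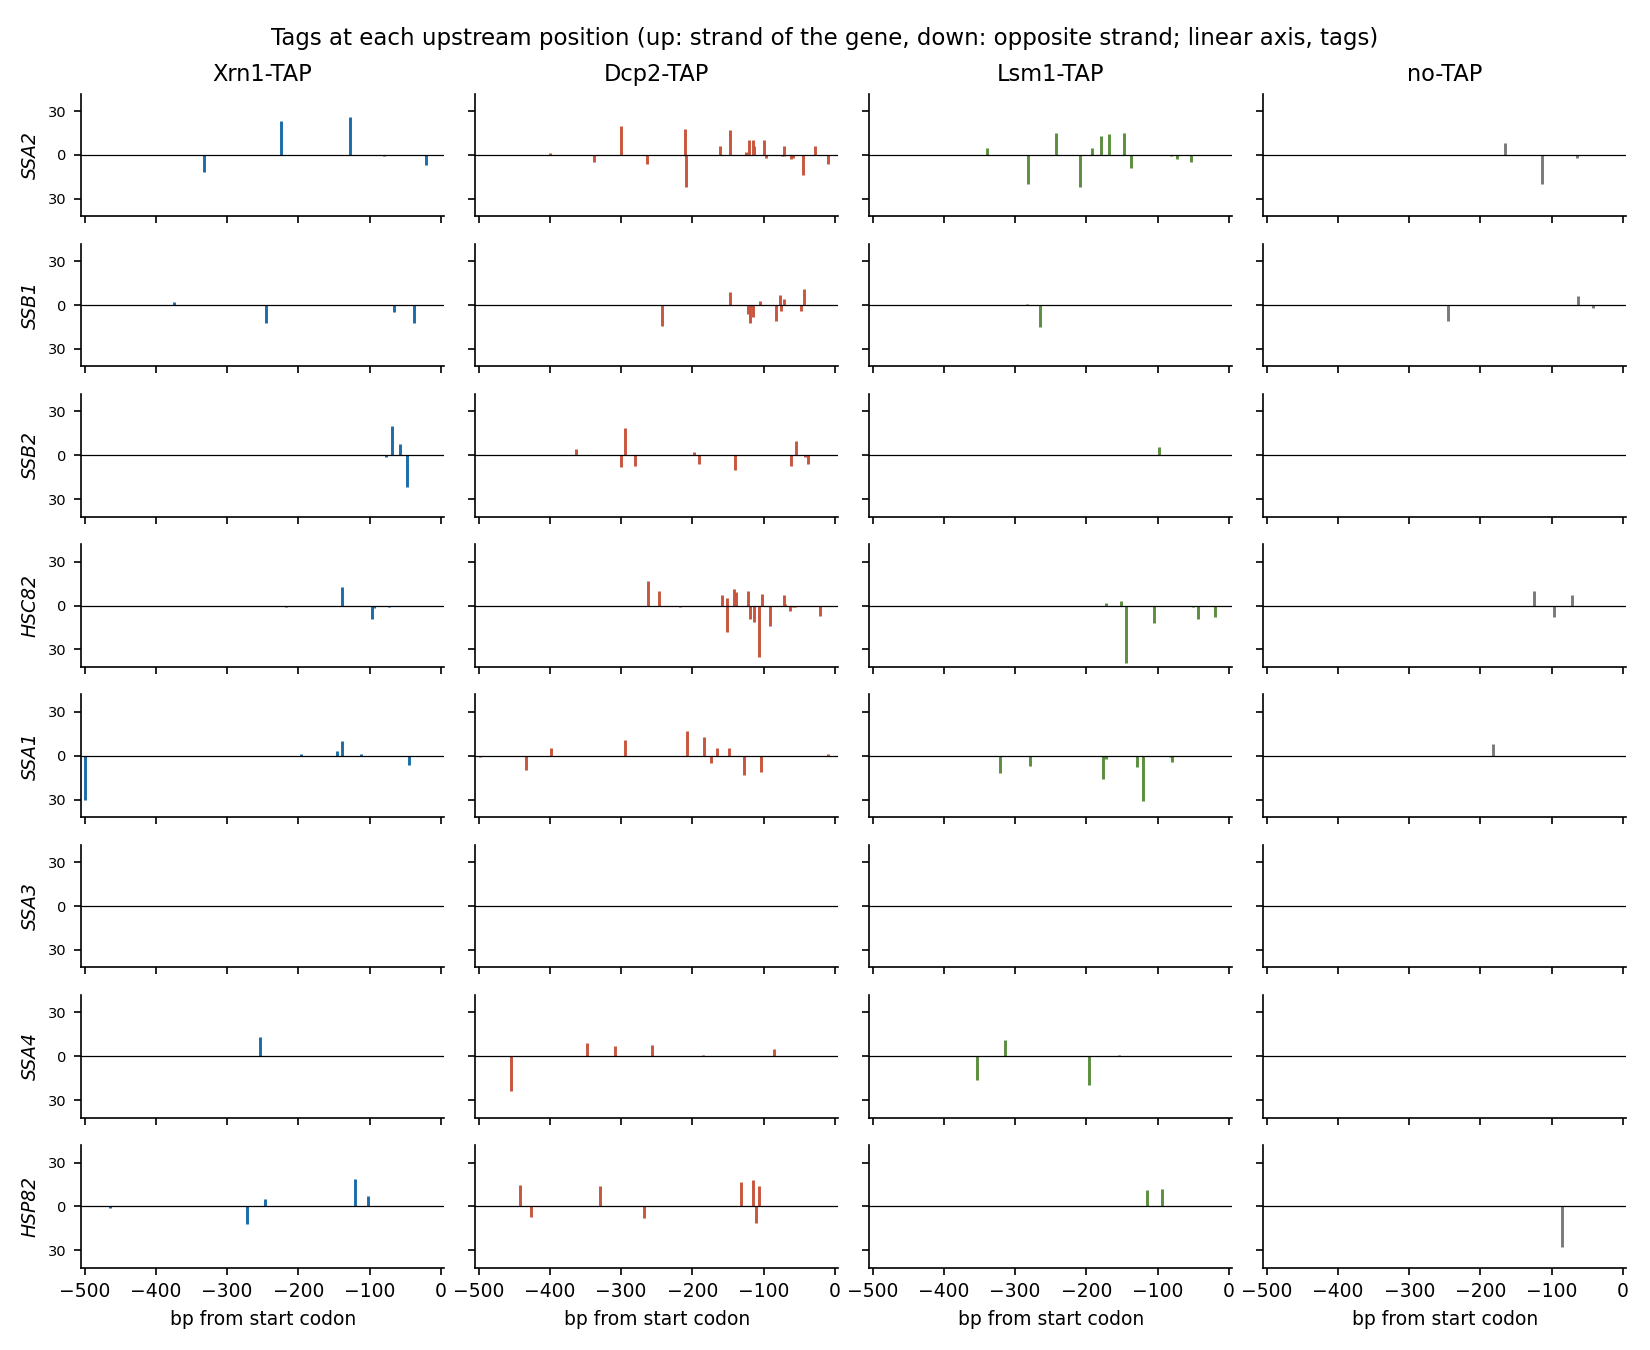
Tags at each upstream position of the 8 genes (rows) in the 4 libraries (columns), plotted against the distance from the start codon in bp. Lines above the axis are tags on the strand of the gene, lines below are tags on the opposite strand, on a linear tag axis. HSC82 and SSA2 in Dcp2-TAP show many positions on both strands, all HSC82 ones within 262 bp, while SSA3 is blank in every column.

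Ranked by upstream positions in each library, neighbouring genes in the order could rarely be told apart. Of 26 neighbouring pairs with at least 1 position, 1 had an interval that excluded 1, namely SSA4 over SSA3 in Dcp2-TAP, with 6 against 0 positions. The wider gap between SSA2 and SSA4 in Dcp2-TAP was 3.67-fold (1.44 to 11.1). In Lsm1-TAP the same pair stood at 3 (0.909 to 12.8). The coding genes whose 4 position counts were most like those of SSA2 (Euclidean distance of square roots over the 4 libraries) were PMA1, the plasma membrane proton pump, at 0.298, NRD1, a factor of transcription termination, at 0.35, and BRP1, at 0.383. PMA1 had 4 positions in Xrn1-TAP, 23 in Dcp2-TAP and 11 in Lsm1-TAP, against 3 in no-TAP. The windows of PMA1 and BRP1 overlap, so these are largely 1 set of positions.

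The constitutive genes had more upstream positions per window than the stress-induced ones, with an interval above 1 in Dcp2-TAP and Lsm1-TAP. In Dcp2-TAP the 4 constitutive genes had 65 positions, 16.2 per window, against 14 positions at the 3 stress-induced genes, 4.67 per window, a ratio of 3.48 (1.93 to 6.72). In Lsm1-TAP the constitutive genes had 22 positions and the stress-induced genes 6, a ratio per window of 2.75 (1.08 to 8.29). In Xrn1-TAP the counts were 18 and 6, with a ratio of 2.25 (0.856 to 6.92) whose interval held 1. The untagged strain had 9 positions at the constitutive genes and 1 at the stress-induced genes, a ratio of 6.75 (0.935 to 296). Counted in tags, the no-TAP ratio was 1.98 (1.27 to 3.18), where all 28 stress-induced tags lay at the 1 HSP82 position. Leaving out SSA3, the gene with no position, lowered the ratio to 2.32 in Dcp2-TAP (1.29 to 4.48), 1.83 in Lsm1-TAP (0.721 to 5.53), 1.5 in Xrn1-TAP (0.57 to 4.62) and 4.5 in no-TAP (0.624 to 197). The classes also overlapped gene by gene in Lsm1-TAP, where SSB1 and SSB2 had 2 and 1 positions and SSA4 had 4. With 4 and 3 genes, the intervals cover counting error within these genes and not the spread between genes of a class.

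**Figure D3:**
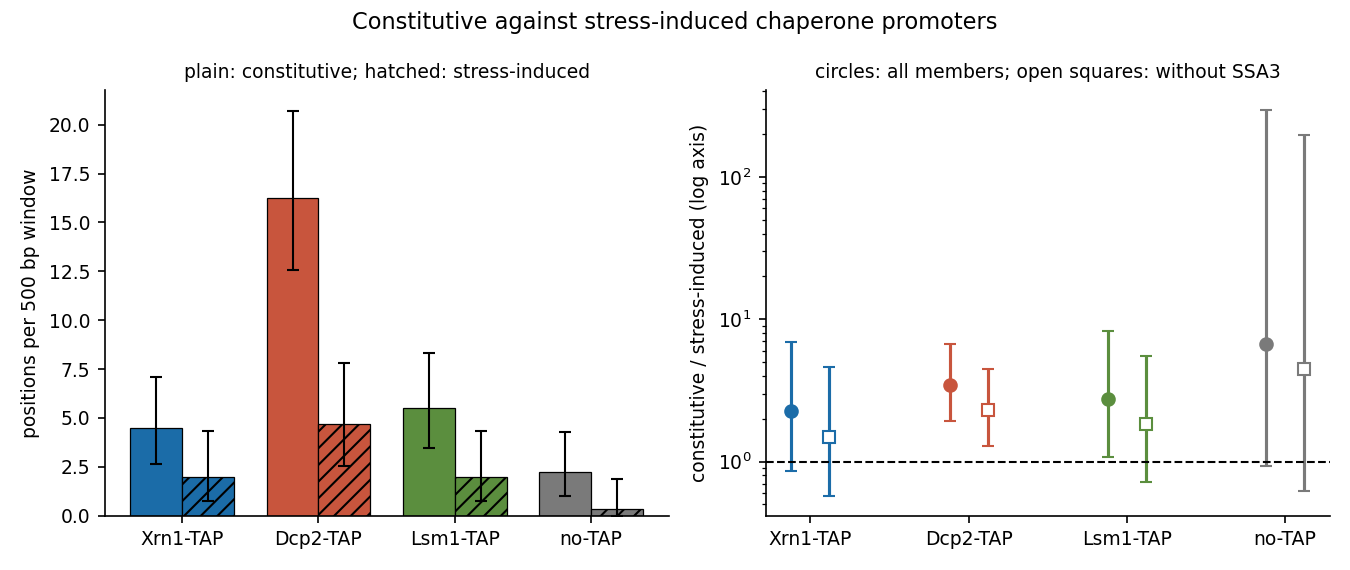
Left, upstream positions per 500 bp window at the constitutive (plain) and stress-induced (hatched) genes in each library, from 0, with exact 95% Poisson intervals. Right, the ratio of constitutive to stress-induced genes on a log axis with exact conditional 95% intervals, for all members (filled circles) and without SSA3 (open squares); in Dcp2-TAP both intervals lie above the dashed line at 1.

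The summed positions leaned toward the start codon, with a higher share at the constitutive than at the stress-induced genes in Xrn1-TAP and Dcp2-TAP. Within the window, 66.7% of the chaperone genes' positions in Xrn1-TAP (47.2% to 82.7%), 70.3% in Dcp2-TAP (59.8% to 79.5%) and 72.2% in Lsm1-TAP (54.8% to 85.8%), against 90.9% in no-TAP (58.7% to 99.8%), fell in the nearest 200 bp. Over all coding genes these shares were 49.4%, 51.3%, 48.2% and 50.5%, within the chaperone genes' interval in Xrn1-TAP and below it in the other libraries. The constitutive genes had 72.2% (46.5% to 90.3%) within 200 bp in Xrn1-TAP and 78.5% (66.5% to 87.7%) in Dcp2-TAP, against 33.3% (4.33% to 77.7%) and 42.9% (17.7% to 71.1%) at the stress-induced genes. In Lsm1-TAP the classes were close, at 72.7% (49.8% to 89.3%) and 66.7% (22.3% to 95.7%). In no-TAP they stood at 88.9% (51.8% to 99.7%) and 100%, the latter from 1 position. The intervals of the classes overlapped in each library. In Dcp2-TAP the median distance was 115 bp at the constitutive genes and 262 bp at the stress-induced ones, from 65 and 14 positions. The Lsm1-TAP medians were 150 and 176 bp. The windows also differ in layout, since a neighbouring gene lies 357, 315 and 384 bp upstream of SSB1, SSB2 and HSC82. No gene lies in the 500 bp windows of SSA2, SSA4 or HSP82, and the HSP82 window overlaps that of YAR1. Whether this layout bears on the difference between the classes was not tested. Distances carry an uncertainty of up to about 40 bp, since the genome build of the files is not named. By positions the strand shares had intervals that held 50%, with 46.7% of positions on the strand of the gene in Xrn1-TAP (28.3% to 65.7%), 52.7% in Dcp2-TAP (42% to 63.3%) and 38.9% in Lsm1-TAP (23.1% to 56.5%), against 45.5% in no-TAP (16.7% to 76.6%). By tags they were 53% (47% to 58.9%), 54.7% (51.1% to 58.2%), 30.4% (25.8% to 35.3%) and 35.5% (26.6% to 45.1%), above 50% in Dcp2-TAP and below it in Lsm1-TAP and no-TAP, with copies of fragments counted.

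Few of the exact positions recurred between libraries. Dcp2-TAP and Lsm1-TAP shared 4 upstream positions, 4.4% of those of Dcp2-TAP and 11.1% of those of Lsm1-TAP, where 1.84% and 3.26% of all positions of these libraries were shared. Of these 4, SSA2 had an antisense position 209 bp upstream with 22 tags in each library and a sense position 147 bp upstream with 17 and 15 tags. HSP82 had a sense position 115 bp upstream with 18 and 11 tags, and HSC82 a sense position 152 bp upstream with 5 and 3. Dcp2-TAP and no-TAP shared 1 position, on the sense strand of SSA1 183 bp upstream, with 13 and 8 tags. This was 1.1% and 9.09% of theirs, beside 0.367% and 3.48% of all positions. Xrn1-TAP shared 1 with Dcp2-TAP, at HSC82, with 1 tag in each. That was 3.33% and 1.1%, beside 3.5% and 1.44% of all positions. Xrn1-TAP and Lsm1-TAP shared 0, beside 2.33% and 1.7%. Xrn1-TAP and no-TAP also shared 0, beside 0.552% and 2.15%, as did Lsm1-TAP and no-TAP, beside 0.399% and 2.13%.

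The tagged strains were then set against the untagged strain, to ask whether the decay factors themselves are at these promoters. Scaled to the total of distinct positions, the summed upstream positions were 0.7 times those of no-TAP in Xrn1-TAP (0.341 to 1.55), 0.873 times in Dcp2-TAP (0.465 to 1.81) and 0.613 times in Lsm1-TAP (0.305 to 1.33). All 3 intervals held 1. By tags scaled to total tags the same ratios were 0.548 (0.438 to 0.689), 0.669 (0.548 to 0.825) and 0.539 (0.435 to 0.673), below 1. When the scale for positions was instead the median ratio of the 810 genes found in all 4 libraries, which raises every log2 ratio to no-TAP by 1.11, 1.25 and 1.42 and rests on genes picked for having control positions, they were 1.51 (0.735 to 3.34), 2.08 (1.11 to 4.31) and 1.64 (0.815 to 3.56), so the direction rests on the scaling. None of the 8 genes had an interval above or below 1 by positions, where 0.0176%, 0% and 0.0176% of all genes lay above no-TAP with Xrn1, Dcp2 and Lsm1 tagged and 0.123%, 0.387% and 0.774% below. The control held at most 3 positions per window, so smaller differences were not detectable at this depth.

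Counted in tags and scaled to total tags, single genes lay above or below no-TAP. SSB2 had 51 tags in Xrn1-TAP and 80 in Dcp2-TAP, against 0 in no-TAP, with 95% intervals of the ratio that start at 2.82 and 1.98. SSA4 had 54 tags in Dcp2-TAP and 48 in Lsm1-TAP, against 0 in no-TAP, with intervals that start at 1.32 and 1.98. Neither gene has a control tag to set a ratio by. HSP82 lay below no-TAP in all 3, at 0.332 (0.202 to 0.554), 0.347 (0.227 to 0.547) and 0.130 (0.0715 to 0.234). SSB1 lay below as well, at 0.345 (0.189 to 0.646), 0.457 (0.277 to 0.793) and 0.133 (0.0641 to 0.273). HSC82 lay below in Xrn1-TAP, at 0.22 (0.122 to 0.397), and in Lsm1-TAP, at 0.468 (0.294 to 0.769). SSA2 lay below in Xrn1-TAP, at 0.486 (0.312 to 0.773), and in Dcp2-TAP, at 0.542 (0.366 to 0.827). In number, 1, 2 and 1 of the 8 genes lay above no-TAP, beside 14.1%, 12% and 12.4% of all genes, and 4, 3 and 3 below, beside 11.8%, 12% and 13.1%. Under median-ratio scaling of the tags HSP82 stood at 0.554 (0.337 to 0.924), 0.642 (0.42 to 1.01) and 0.298 (0.164 to 0.536), and SSB1 at 0.575 (0.315 to 1.08), 0.846 (0.513 to 1.47) and 0.305 (0.147 to 0.626), so that their Dcp2-TAP intervals and that of SSB1 in Xrn1-TAP then held 1. With this scaling 3, 3 and 3 of the 8 genes lay above no-TAP, beside 24.5%, 29.5% and 30.1% of all genes, and 2, 0 and 2 below, beside 9.5%, 8.57% and 9.1%. HSC82 stayed below no-TAP in Xrn1-TAP, at 0.366 (0.203 to 0.662), and stood at 1.07 (0.673 to 1.76) in Lsm1-TAP. SSA2 stood at 0.811 (0.521 to 1.29) in Xrn1-TAP and 1 (0.678 to 1.53) in Dcp2-TAP. In Lsm1-TAP SSA2 then lay above no-TAP, at 1.53 (1.02 to 2.37), where total tags gave 0.67 (0.447 to 1.03). SSA1 also lay above no-TAP, at 2.25 (1.06 to 5.48), 2.1 (1.02 to 4.99) and 3.67 (1.78 to 8.78), where total tags gave 1.35 (0.635 to 3.29), 1.13 (0.553 to 2.7) and 1.6 (0.775 to 3.84). These intervals treat copies of a fragment as independent tags and are too narrow.

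Between the tagged libraries, the intervals of most ratios at the chaperone promoters held 1. Scaled to total positions, the 8 windows of Dcp2-TAP had 1.42 times the positions of Lsm1-TAP (0.959 to 2.16), where all coding genes together stood at 1.15 (1.12 to 1.18). For the constitutive genes alone the ratio was 1.67 (1.01 to 2.84), whose interval lay above 1 but held the 1.15 of all coding genes, and for the stress-induced genes 1.32 (0.475 to 4.18). Xrn1-TAP stood at 0.802 times Dcp2-TAP (0.512 to 1.22) and at 1.14 times Lsm1-TAP (0.68 to 1.91) over the 8 genes. The gap between Dcp2-TAP and Lsm1-TAP had its highest values at the ribosome-bound Hsp70 genes, with 3.38 at SSB1 (0.753 to 31.1) and 6.2 at SSB2 (0.901 to 267), and was 1.03 at SSA2 (0.49 to 2.29), each interval holding 1.

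The counts in the coding regions are uncertain where genes are near-identical copies, as SSA1 and SSA2 and SSB1 and SSB2 are known to be. Within SSA1 and SSA2, 31 positions recurred in the same library, on the same strand and exactly 3 bp further from the start codon in SSA2 than in SSA1, where the next most frequent offset had 2 pairs. In Dcp2-TAP 15 such positions made up 50% of those in SSA1 and 68.2% of those in SSA2. Lsm1-TAP had 11 and Xrn1-TAP had 5. Over the libraries these positions carried 257 tags in SSA1 and 253 in SSA2, and they lay between 414 and 1650 bp into SSA1. SSB1 and SSB2 shared 8 positions at an offset of 0, with 49 and 43 tags, where the next offset had 1. The Hsp90 genes HSC82 and HSP82 had 4 at their most frequent offset, 14 bp, beside 2 at the next. These 4 were not taken as shared, so none was left out below. Upstream of the same 4 pairs of copies, no offset had more than 3. These positions stand in the files at both copies and were counted in both, and which copy the fragments came from cannot be told.

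**Figure D4:**
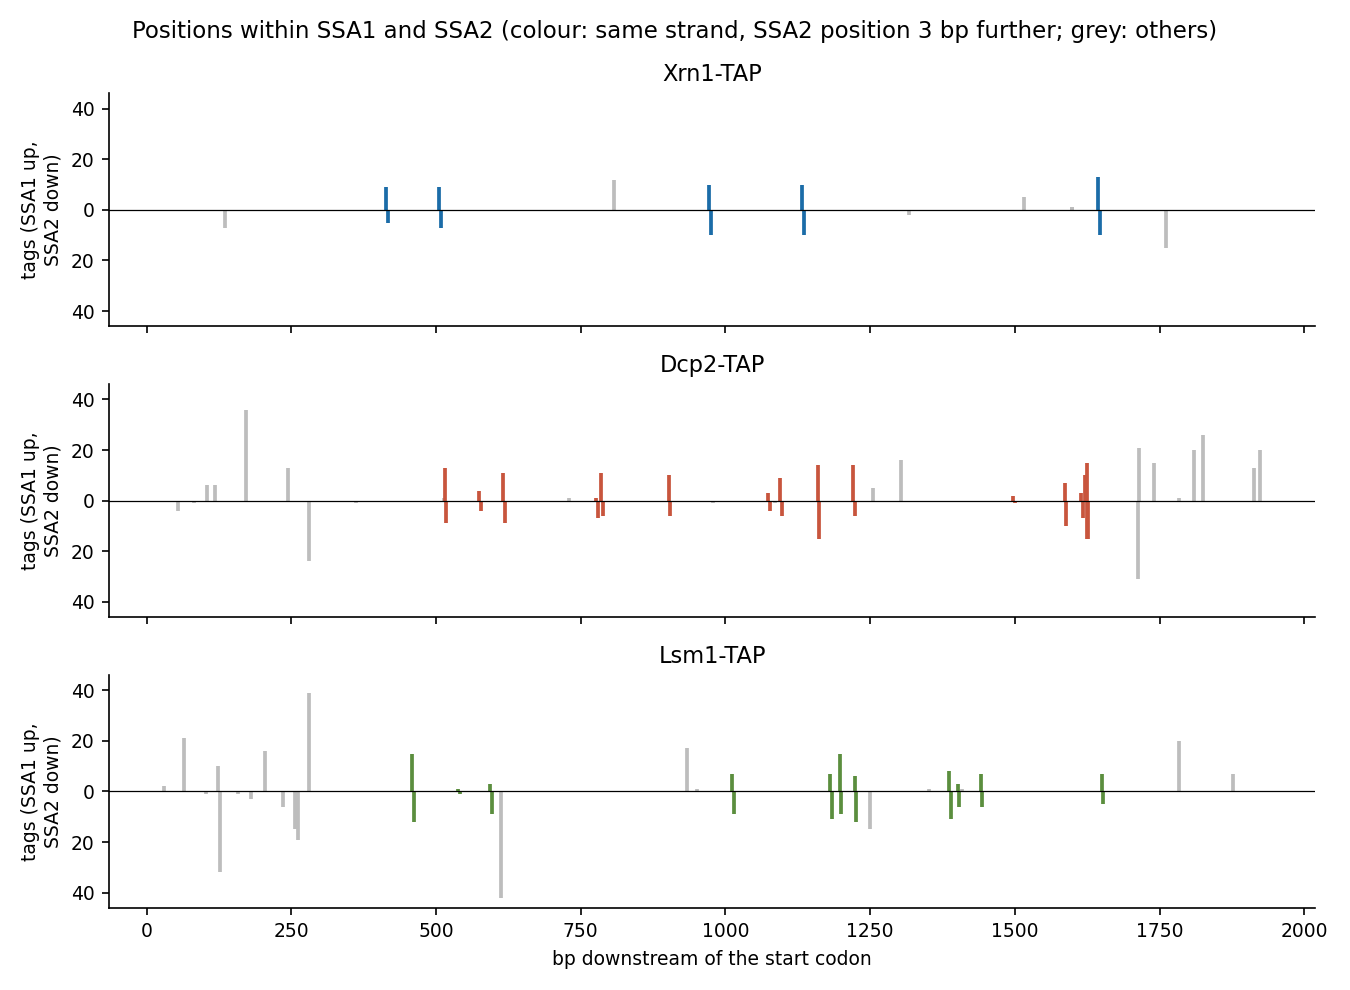
Tags at positions within SSA1 (above the axis) and SSA2 (below the axis), strands combined, against the distance from the start codon in bp, in the 3 tagged libraries. Coloured lines are positions found on the same strand 3 bp further into SSA2, 5 in Xrn1-TAP, 15 in Dcp2-TAP and 11 in Lsm1-TAP; grey lines are all others.

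With that limit, the coding regions taken as a sum were also denser than those of the average gene, but not those of every member. The 8 genes held 48 positions in Xrn1-TAP, 118 in Dcp2-TAP and 76 in Lsm1-TAP, against 10 in no-TAP, which per kb was 2.81 (2.07 to 3.72), 2.92 (2.42 to 3.5), 3.06 (2.41 to 3.83) and 2.28 (1.1 to 4.2) times all coding genes. Without the positions shared between copies the folds were 1.87 (1.28 to 2.65), 2.03 (1.62 to 2.52) and 2.02 (1.5 to 2.66) in the tagged libraries. No-TAP had no shared position and stayed at 2.28 (1.1 to 4.2). With shared positions counted once, the tagged libraries stood at 2.34 (1.67 to 3.19), 2.48 (2.02 to 3.01) and 2.54 (1.95 to 3.25). HSP82 was called within the gene in all 3 tagged libraries, with 12, 21 and 12 positions, against 2 in no-TAP. The adjusted p was 0.00462, 0.00137 and 0.0454 in the Poisson test. Its calls were not tested without the positions that recurred in HSC82. SSA1, with 9, 30, 22 and 1 positions, and SSA2, with 8, 22, 20 and 0, were called in Dcp2-TAP and Lsm1-TAP. Neither was called once the shared positions were left out. In the Poisson test the adjusted p was then 0.114 and 0.0618 for SSA1 and 1 and 0.408 for SSA2. Leaving them out takes positions from both copies and keeps the full gene length, so folds and calls could only fall. Counts of members called within the gene were 1, 3, 3 and 0, beside 2.01%, 3.04%, 2.48% and 1.16% of all coding genes, and 2 members passed 0.05 unadjusted in no-TAP, beside 2.45%. Neither stress-induced SSA gene was called, with SSA3 at 3, 5, 1 and 0 positions and SSA4 at 0, 9, 2 and 3. HSC82 had 7, 16, 8 and 4, SSB1 4, 8, 5 and 0, and SSB2 5, 7, 6 and 0. Without shared positions SSB1 stood at 0.497, 1.05 and 1.03 times all coding genes in the tagged libraries, and SSB2 at 0.994, 0.842 and 1.37. SSA3 stood at 1.41, 0.994 and 0.323, and SSA4 at 0, 1.81 and 0.653. The intervals of SSB1, SSB2, SSA3 and SSA4 all held 1 there.

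**Figure D5:**
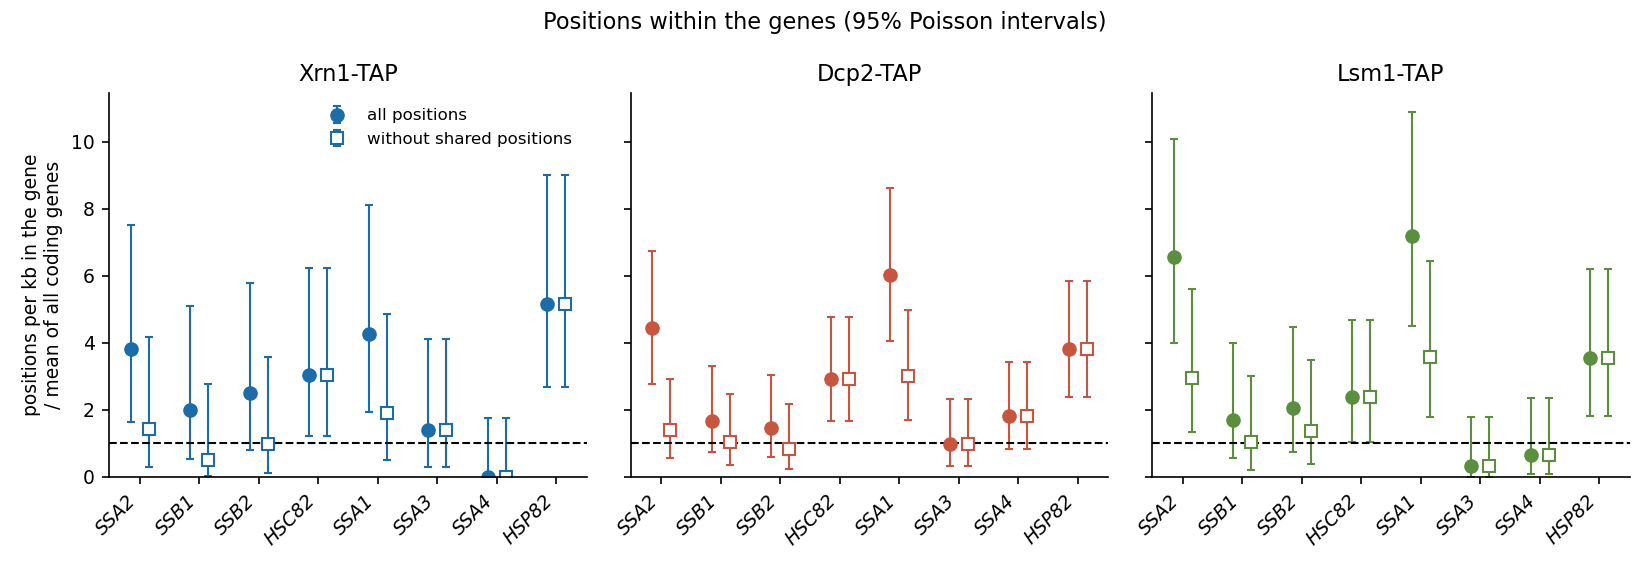
Positions per kb within each gene, divided by the mean of all coding genes (linear axis from 0; dashed line at 1), in the 3 tagged libraries with exact 95% Poisson intervals. Filled circles hold all positions and open squares leave out those taken as shared between copies. SSA1 and SSA2 could only move down when these are left out. At HSP82, with 5.16, 3.82 and 3.55, no position was left out.

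Upstream windows were denser than the genes themselves, by 2.45 times in Xrn1-TAP (1.5 to 3.94), 3.02 times in Dcp2-TAP (2.27 to 4) and 1.85 times in Lsm1-TAP (1.21 to 2.79), against 4.31 times in no-TAP (1.66 to 11.3). The no-TAP value rests on few positions and was 7.18 with 300 bp windows, 7.42 in tags and 10.8 with positions of at least 2 tags. Over all coding genes the ratios were 2.31, 2.48, 1.98 and 2.31. Within the gene, HSC82 had 0.587 (0.196 to 1.62), 0.766 (0.374 to 1.54) and 0.67 (0.238 to 1.78) times the positions per bp of HSP82 in the tagged libraries, intervals that held 1.

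The genes of the chaperones' partners and regulators lay nearer to the mean gene. Of 37 listed genes 34 were used, and 3 (SBA1, LHS1 and MSN4) lie on chromosome XI, which was left out. Their summed upstream positions were 1.03 times the mean gene in Xrn1-TAP (0.746 to 1.38), 1.35 times in Dcp2-TAP (1.14 to 1.59) and 1.33 times in Lsm1-TAP (1.04 to 1.67), against 1.27 times in no-TAP (0.696 to 2.14). By positions 0 of the 34 were called in Xrn1-TAP, 8 in Dcp2-TAP and 3 in Lsm1-TAP, against 0 in no-TAP, beside 4.52%, 10.8%, 6.72% and 0.616% of all genes, and 7 and 4 passed 0.05 unadjusted in Xrn1-TAP and no-TAP, beside 14.9% and 5.23%. YDJ1, the main J-protein partner of the Ssa proteins, had 18 positions in Dcp2-TAP, 10 in Lsm1-TAP, 0 in Xrn1-TAP and 2 in no-TAP, and SSC1, the Hsp70 of the mitochondrial matrix, had 9, 7, 4 and 1 in this order, both called in Dcp2-TAP and Lsm1-TAP. PPT1, a phosphatase that acts on Hsp90, was the third gene called in Lsm1-TAP, with 6 positions. SIS1, a J-protein, had 8, 4, 4 and 0, and SSE1, an Hsp110 exchange factor, 11, 1, 2 and 2, both called in Dcp2-TAP. The other genes called in Dcp2-TAP were XDJ1, STI1, which links Hsp70 to Hsp90, HSP104, the disaggregase, and KAR2, the Hsp70 of the endoplasmic reticulum. The regulator genes HSF1 and MSN2 had few positions, with 1 in Dcp2-TAP at HSF1, 2 in Xrn1-TAP at MSN2 and 0 in the other libraries. Together they stood at 0.794 times the mean gene in Xrn1-TAP (0.0961 to 2.87) and 0.156 in Dcp2-TAP (0.00395 to 0.87). Lsm1-TAP and no-TAP gave 0, with intervals up to 1.17 and 5.7. Only the Dcp2-TAP interval lay below 1.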

How the data were processed

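Per the file headers, the authors deposited counts of tags at each genome position for either strand, with a column for both together; they are whole numbers and not normalized. Per the labels' protocols, formaldehyde-fixed chromatin was sonicated, pulled down on IgG beads and digested with lambda and RecJf exonucleases. The aligner, genome build, duplicate handling and treatment of tags mapping to several places were not given in the sources used here. Each experiment had 2 replicates in the series' design text, yet 1 file; each file was treated as 1 library.

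Indices (lowest 0) were used as given. Moved in steps of 10 bp, the R64 gene table of RefSeq put most positions in the 300 bp before start codons at lags of at most 40 bp on the 8 chromosomes with members and at most 60 bp on the others used; chromosome XI, at -340 bp, was left out. No R64 coordinates are given, and strands come from systematic names. For each gene, distinct positions and tags were counted in the gene and over 500 bp before its start codon. Each library was tested against its mean density on the chromosomes used, ribosomal DNA excepted (1-sided exact Poisson test, Benjamini-Hochberg over all genes). Ratios have exact conditional binomial intervals and shares Clopper-Pearson intervals, at 95%. In simulated counts for the 5684 genes, some genes were raised 8-fold or 4-fold over each library's mean density, not over the mean gene. That density, per 500 bp, was 0.707 positions with Xrn1 tagged, 1.74 with Dcp2, 0.958 with Lsm1 and 0.181 with no tag. The mean gene had 1.26, 3.2, 1.57 and 0.323. In this order the rule called 65.5%, 95%, 74.5% and 7% of genes raised 8-fold. Of genes raised 4-fold it called 7%, 36%, 6.5% and 0%. These shares do not carry over to folds over the mean gene. Python 3.11.15, numpy 2.4.6, pandas 2.3.3, scipy 1.17.1 and matplotlib 3.10.9 were used.

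Members and lists were chosen with earlier results of these data known. Named were all members, genes whose upstream windows overlap theirs, the 3 genes most like the top member, and of the partner list the genes called in at least 2 libraries and the 4 with most positions; other genes were named after their values were seen. The leaving out of SSA3, of overlapping windows and of positions shared between copies, the alternatives for counts within genes and the median-ratio scaling of tags were also chosen after seeing the data. Sequences were not used here.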

Additional observations from a re-analysis of the deposited data

How the results depend on the processing

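The summed upstream fold over the mean gene kept an interval above 1 under every alternative run, between 2.51 and 3.76 in Xrn1-TAP, 3.47 and 4.38 in Dcp2-TAP, 2.75 and 3.73 in Lsm1-TAP and 4.18 and 6.02 in no-TAP. With 300 bp windows it was 4.38 in Dcp2-TAP, upstream over gene density was 4.37 there, and 3 members were called in no-TAP, beside 0.774% of all genes. Counted in tags, 7, 6 and 5 members were called upstream in Xrn1-TAP, Lsm1-TAP and no-TAP (percentages in the report). Within the gene tags called 5 in Xrn1-TAP beside 16.3% of genes, 7 in Dcp2-TAP beside 16.3%, 6 in Lsm1-TAP beside 17.8% and 2 in no-TAP beside 10.1%, with gene folds of 4.28 in Dcp2-TAP and 3.99 in Lsm1-TAP. Tags also put the summed ratio to no-TAP at 0.548, 0.669 and 0.539 in the tagged libraries, the constitutive to stress-induced ratio at 2.33 in Xrn1-TAP and 1.98 in no-TAP, and the sense share at 54.7% in Dcp2-TAP and 30.4% in Lsm1-TAP, against 35.5% in no-TAP, with intervals that no longer held 1 or 50%. With positions of at least 2 tags, 3 members were called upstream in no-TAP beside 0.844%, and the gene fold was 3.51 in Dcp2-TAP and 1.48 in no-TAP, where its interval held 1. With only genes of at least 10 positions over the 4 libraries, 3 were called upstream in no-TAP beside 7.72% and 3 within the gene in Xrn1-TAP beside 14.6%, fewer genes entering the adjustment. Median-ratio scaling gave 2.08 and 1.64 times no-TAP in Dcp2-TAP and Lsm1-TAP, above 1 where totals gave less; from tags it turned SSA2 to 1 (Dcp2-TAP) and 1.53 (Lsm1-TAP) and HSC82 to 1.29 and 1.07. Against the first 300 bp of the gene alone, upstream density was 4.5 times in Xrn1-TAP, and in Lsm1-TAP, at 1.27, and no-TAP, at 3.3, the interval held 1. Without positions shared between copies, upstream over gene density was 4.34 in Dcp2-TAP and 2.82 in Lsm1-TAP. There 1 member was called within the gene in each, beside 3.01% and 2.45%. Gene folds were 1.87, 2.03 and 2.02 in the tagged libraries, against an unchanged 2.28 in no-TAP. With shared positions counted once, the gene folds of the tagged libraries were 2.34, 2.48 and 2.54. The constitutive to stress-induced ratio in Dcp2-TAP ranged from 2.32 to 5.81 with intervals above 1 in all 9 alternatives. In Lsm1-TAP its interval held 1 without SSA3, at 1.83, and with SSA1 among the stress-induced genes, at 1.57. In no-TAP, windows ended at the neighbouring gene gave 7.36, with an interval above 1. For the other changes the cause was not tested. No paired analysis was possible because each strain has 1 library. The no-TAP depth, with 11 upstream positions in all, limits every comparison to the untagged strain.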
